A study of Mus musculus with 8 samples.

Results

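The cytosolic ribosomal protein genes were examined in whole livers of mice fed a NASH diet. Members were the genes of the count table whose GENCODE M21 symbol is Rpl or Rps followed by a number and at most 1 of the letters a, x or l, together with Rplp0, Rplp1, Rplp2 and Rpsa. The rule used names only and no measured value. It gave 82 of 46517 genes, of which 32 belong by name to the small subunit and 50 to the large subunit. All 32 small-subunit genes and 46 of the large-subunit genes passed the filter on low counts, so that 78 of 82 members were tested. The 4 members that were not tested were Rpl10l, with 0 counts in every mouse, Rpl39l, with 3 counts in MøFoxO1-KO replicate 29 and 0 counts in the other mice, Rpl3l, with 0 to 10 counts per mouse, and Rpl6l, with 5 to 12 counts per mouse. Rpl3l and Rpl10l are known for expression in striated muscle and in testis, respectively. Rpl6l and Rps4l are annotated as pseudogenes, although their names follow the rule. Rps3a1, Fau and Rack1 encode ribosomal components under names that the rule does not take, and their values are given apart.

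Livers came from 4 male MøFoxO1-KO mice (FoxO1 loxP/loxP; Lyz2-Cre) and 4 male FoxO1 loxP/loxP littermates without Cre, referred to as WT, on the C57BL/6 background. In MøFoxO1-KO mice Cre is expressed from the Lyz2 promoter, which is active in myeloid cells, and both groups carry the loxP-flanked FoxO1 alleles. All mice were put on the NASH diet at 6 weeks of age, were kept on it for 25 weeks, were fasted for 16 hours and were 31 weeks old at collection. Polyadenylated RNA was sequenced, and the authors deposited the number of reads per gene. Total counts were 15253218 to 18025481 per mouse. In whole liver the Foxo1 level was 403 ± 73.8 normalized counts in WT and 359 ± 73.3 in MøFoxO1-KO mice (SD, n = 4 each), which is -0.17 ± 0.18 as a log2 fold change with its SE (adjusted P = 0.686 by edgeR), and since hepatocytes also express Foxo1 this does not check the deletion in myeloid cells. Normalized counts are counts divided by the effective library size of the mouse and multiplied by the mean library size. The labels do not say more about how the 8 livers were collected, so P values measure the spread between these mice.

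The cytosolic ribosome is built from ribosomal RNA and about as many kinds of protein as there are genes in this list, one copy of each per ribosome for nearly all of them. In the small subunit they frame the channel in which mRNA is decoded, and in the large subunit they surround the peptide exit tunnel and carry the acidic stalk that recruits translation factors. Most of their mRNAs start with a C followed by a run of pyrimidines, the terminal oligopyrimidine (TOP) motif, through which mTORC1 and the RNA-binding protein LARP1 control their translation and stability together. In liver they are among the abundant mRNAs of every cell type, hepatocytes included. In bulk tissue, fewer cells of a type and less RNA per cell cannot be told apart.

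The start of transcription is where the TOP motif lies, and short windows around it are shown because these genes are known for it. RefSeq promoters (GRCm38.p6) were available for 60 of the 82 members, in 72 windows. Each window runs from 12 bases before to 18 bases after the annotated start, so that base 13 is the start. The letters CTTTC were searched on the strand of the gene and, as a comparison, as their reverse complement, with no other motif overlapping the search. They were found in 17 of the 72 windows (23.6%), against 3.9% of all 32851 promoter windows. The reverse complement was found in 2 windows of members (2.78%) and in 3.64% of all windows. In a narrower window from 10 bases before to 15 bases after the start the shares were 20.8% and 3.1%. The following 8 windows, chosen after the search, are in lower case with CTTTC in capitals. Rps6 and Rps18 lack these letters. From base 13 both of their windows still read as a C followed by a run of pyrimidines. They are therefore no contrast for the TOP motif itself, and absence of CTTTC does not mean absence of the motif.
Rpl27a: ttcgtgagctcctcccttttccCTTTCtgc
Rpl28: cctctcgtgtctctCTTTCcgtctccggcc
Rpl35: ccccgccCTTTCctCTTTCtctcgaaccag
Rpl38: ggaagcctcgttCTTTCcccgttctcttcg
Rplp2: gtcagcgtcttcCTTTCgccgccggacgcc
Rps27: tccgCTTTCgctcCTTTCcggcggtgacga
Rps6: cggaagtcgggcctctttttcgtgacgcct
Rps18: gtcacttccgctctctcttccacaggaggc

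On GRCm38.p6 these windows lie at chr7:109519183-109519212 on the plus strand for Rpl27a, chr7:4792953-4792982 on the plus strand for Rpl28, chr2:39005114-39005143 on the minus strand for Rpl35 and chr11:114668568-114668597 on the plus strand for Rpl38. The window of Rplp2 lies at chr7:141447639-141447668 on the plus strand, that of Rps27 at chr3:90213631-90213660 on the minus strand, that of Rps6 at chr4:86857350-86857379 on the minus strand and that of Rps18 at chr17:33955648-33955677 on the minus strand. The median log2 fold change was 0.58 over the 16 tested members with CTTTC in the window, 0.47 over the 41 tested members with a window but without these letters and 0.49 over the 21 tested members without a promoter entry. The ranges were 0.23 to 0.73, 0.00 to 0.66 and 0.13 to 1.27, and they overlap.

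Nearly all ribosomal protein genes had a higher mean level in MøFoxO1-KO than in WT livers, by a similar and modest amount. The median log2 fold change over the 78 tested members was 0.51, a fold change of 1.42, and the middle of the list lay between 0.40 and 0.59. The log2 fold change was positive for 77 of the 78 members and negative for 1, Rps18, at 0.00. Over all 13278 tested genes the median was -0.01 and 48.3% were positive. At an unadjusted P under 0.05 (edgeR quasi-likelihood test), 56 of 78 members were higher in MøFoxO1-KO livers and 0 were lower. Beside this, 8.65% of all tested genes were higher and 8.06% lower. The share was larger among short genes that are not members. It was 28.3% from 500 to 1000 bases and 19.1% from 1000 to 2000 bases, and all ranges of length are given below. No member passed at an adjusted P under 0.05 (Benjamini-Hochberg over all 13278 genes), where 0.294% of all genes were called, and the smallest adjusted P was 0.131 for Rplp1. With DESeq2 in place of edgeR, 8 members passed at an adjusted P under 0.05, all higher in MøFoxO1-KO livers, beside 2.58% of all genes. They were Rpl29, Rplp1, Rps9, Rpl3, Rpl10a, Rpl27a, Rps13 and Rpsa. In 16 of 78 members every MøFoxO1-KO mouse was above every WT mouse, against 5.0% of all tested genes, and in 0 members was every MøFoxO1-KO mouse below every WT mouse, against 4.71% of all tested genes.

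**Figure D1:**
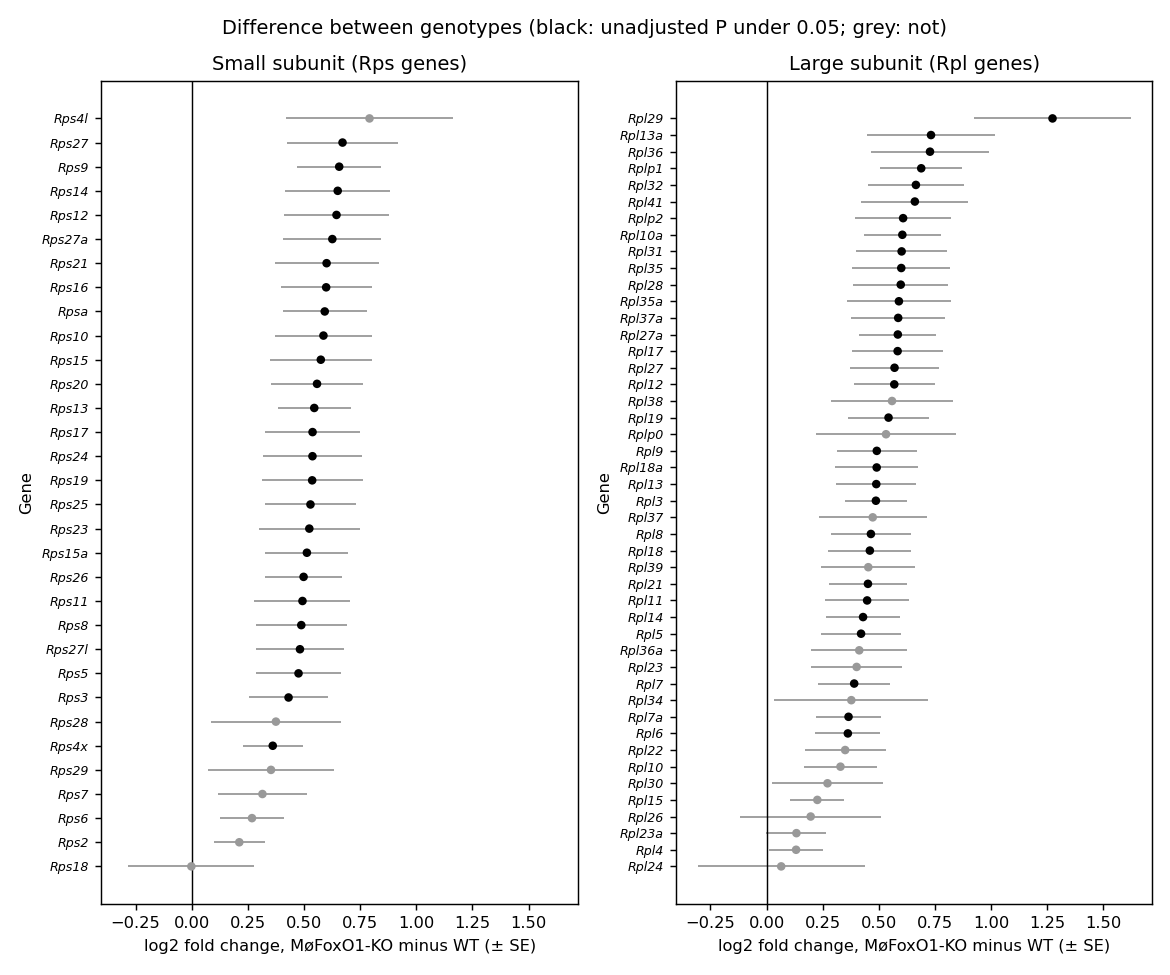
Log2 fold change of the 78 tested ribosomal protein genes (x axis, MøFoxO1-KO minus WT, points with bars of 1 standard error from edgeR, n = 4 mice per group), with the 32 small-subunit genes on the left and the 46 large-subunit genes on the right. Black points have an unadjusted P under 0.05 (56 genes) and grey points do not. All points but that of Rps18 lie to the right of 0.

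Levels of the members moved together from mouse to mouse. For each mouse the median deviation of the 78 members from their own means, on the log2 scale with a pseudocount of 0.5, was -0.10, -0.75, -0.08 and -0.07 in WT replicates 22, 23, 24 and 25. In MøFoxO1-KO replicates 26, 27, 28 and 29 it was -0.10, 0.49, 0.15 and 0.52. The mice farthest from the rest were 1 low WT mouse, replicate 23, and 2 high MøFoxO1-KO mice, replicates 27 and 29. MøFoxO1-KO replicate 28 also lay above all 4 WT mice, with 71 of 78 members above their own mean. MøFoxO1-KO replicate 26 lay at the level of the other 3 WT mice. In WT replicate 23 0 members were above their own mean, and in MøFoxO1-KO replicate 27 all 78 were. The profile of each member over the 8 mice was compared with the median profile of the other members. The Pearson correlation, over 8 mice, had a median of 0.98 and was above 0.9 for 65 of 78 members. These correlations share the libraries and their scaling and are given as a description.

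**Figure D2:**
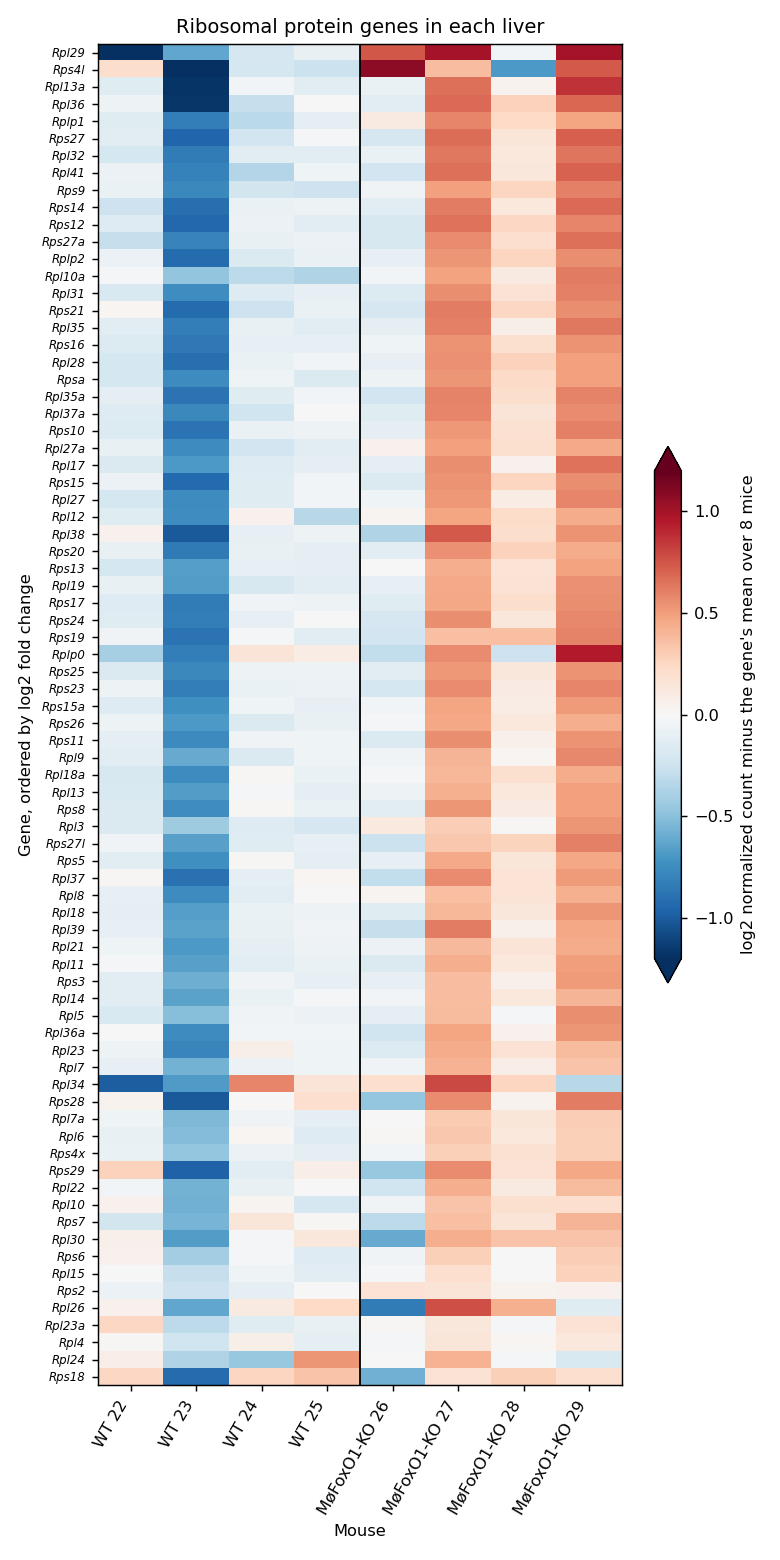
Heat map of the 78 tested ribosomal protein genes (rows, ordered by log2 fold change) in the 8 mice (columns). Color is the log2 normalized count minus the mean of the gene over all mice, and the scale saturates at 1.2 in both directions. WT replicate 23 is blue in all rows, and MøFoxO1-KO replicates 27 and 29 are red in almost all rows, with Rpl34, Rpl26 and Rpl24 below their mean in replicate 29.

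The members together took 2.02%, 1.26%, 2.28% and 2.04% of all counts in WT replicates 22 to 25 and 1.85%, 2.60%, 2.32% and 2.73% in MøFoxO1-KO replicates 26 to 29. The groups overlapped, since replicate 26 of the MøFoxO1-KO mice lay below 3 WT mice. The means were 1.90% ± 0.44 in WT and 2.38% ± 0.39 in MøFoxO1-KO mice (SD, n = 4 each). Counting error was small beside this spread. In WT replicate 23 the Wilson interval with 95% confidence was 1.26% to 1.27%, and it covers counting error only. Without the counts of mitochondrially encoded genes in the denominator the means were 2.01% ± 0.47 and 2.50% ± 0.40.

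Other values were set beside the level of the ribosomal protein genes in each mouse. The first was the dependence of all other genes on gene length, taken as the slope of the log2 deviation of a gene on the log2 of its summed exon length in each mouse. It was 0.013, 0.103, 0.054 and 0.018 per doubling of length in WT replicates 22 to 25. In MøFoxO1-KO replicates 26 to 29 it was -0.021, -0.070, -0.013 and -0.084. A low slope means that short genes were relatively high. The slope was highest in WT replicate 23, with the lowest ribosomal protein gene level, and lowest in replicates 27 and 29, with the highest levels. The other mice did not all follow this order. MøFoxO1-KO replicate 26 had a lower slope than replicate 28 but also a lower level (-0.10 beside 0.15). WT replicate 24 had a higher slope than replicates 22 and 25 at a similar level. All 4 MøFoxO1-KO mice had a lower slope than all 4 WT mice (exact two-sided permutation test, P = 0.0286, the smallest that 4 against 4 mice allow). Levels of macrophage and Kupffer cell markers also differed between mice. The summed normalized count of 8 such markers was 2893 to 4965 in WT mice and 3134 to 14070 in MøFoxO1-KO mice. The highest sums, 9515 and 14070, belonged to replicates 27 and 29, and the lowest, 2893, to WT replicate 23. That mouse was also lowest of the WT mice in the sums of stellate, endothelial, biliary, lymphoid and neutrophil markers. Its endothelial markers, for example, summed to 1483, beside 2706 to 3504 in the other WT mice. In the macrophage and Kupffer marker list 7 of 8 genes had a positive log2 fold change, and 4 of 8 were higher at an unadjusted P under 0.05 (8.65% of all genes). The exception was Lyz2, whose promoter drives Cre, at -0.77 ± 0.64 (SE, edgeR adjusted P = 0.586). It had 98.9 normalized counts in MøFoxO1-KO replicate 27 and 1020 in replicate 29, beside 377 to 1167 in WT mice. The hepatocyte markers, which were the most abundant of all marker lists, summed to 998800 to 1406000 in WT and 1191000 to 1787000 in MøFoxO1-KO mice. The highest WT sum, 1406000, belonged to replicate 23, which had the lowest level of the ribosomal protein genes, and the highest MøFoxO1-KO sum belonged to replicate 27. Most of the sum in WT replicate 23 was Alb, with 1113000 normalized counts. Alb and Cps1 were highest of the WT mice in this replicate, whereas Apoa1 (106000) and Serpina1a (26050) were lowest. Between the genotypes, all 6 hepatocyte markers had a positive log2 fold change. At an unadjusted P under 0.05, 2 of 6 were higher (8.65% of all genes), Apoa1 at 1.07 ± 0.21 and Serpina1a at 0.90 ± 0.20 (SE). Their adjusted P values were 0.0765 and 0.1015 (edgeR). In both, every MøFoxO1-KO mouse was above every WT mouse, beside 5.0% of all tested genes. These markers are named after their values were seen. The share of mitochondrially encoded counts was 5.19% to 5.75% in WT and 4.16% to 6.33% in MøFoxO1-KO mice, and at 5.33% WT replicate 23 lay within the range of the other WT mice. The part of these values in the level of the ribosomal protein genes was not tested.

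**Figure D3:**
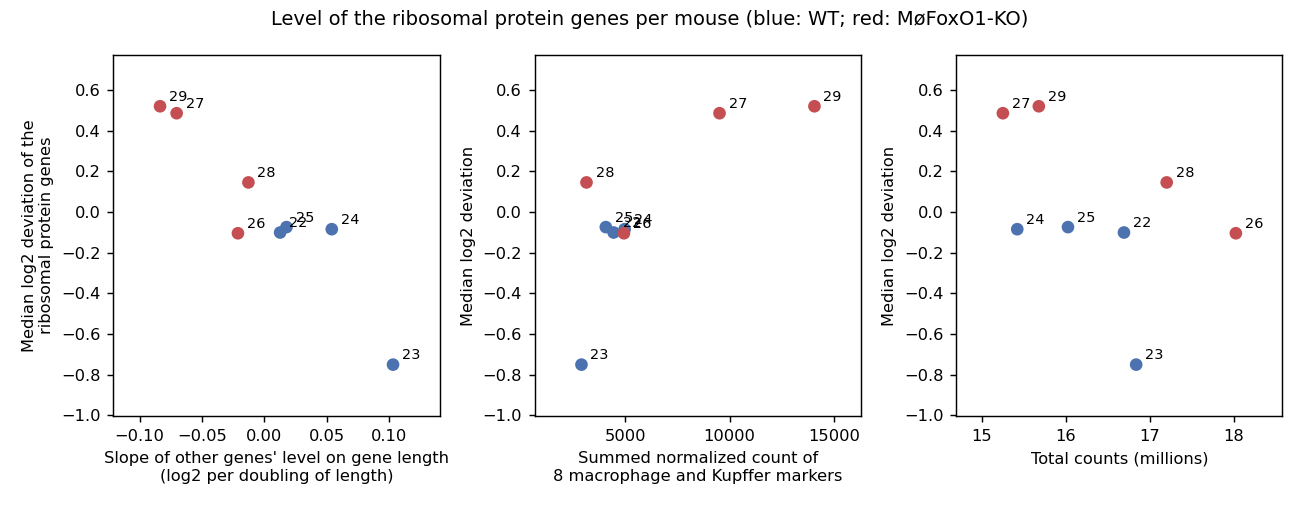
Median log2 deviation of the 78 tested ribosomal protein genes in each mouse (y axis) against the slope of other genes on gene length (left), the summed normalized count of 8 macrophage and Kupffer markers (middle) and the total count (right). Points are mice with their replicate number, blue for WT and red for MøFoxO1-KO. Replicate 23 has the highest slope and the lowest level, and replicates 27 and 29 have the lowest slopes, the highest marker sums and the highest levels.

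The acidic stalk of the large subunit, which recruits elongation factors, is formed by Rplp0, Rplp1 and Rplp2. Rplp1 (ENSMUSG00000007892, chr9:61913284-61914538) had the smallest P of all members. Its normalized counts were 7786, 4831, 6857 and 8010 in WT replicates 22 to 25 and 9286, 12930, 10190 and 11920 in MøFoxO1-KO replicates 26 to 29. Every MøFoxO1-KO mouse was above every WT mouse, and the means were 6871 ± 1449 and 11080 ± 1648 (SD, n = 4 each). Its log2 fold change was 0.69 ± 0.18 (SE, unadjusted P = 0.0036, adjusted P = 0.131 by edgeR). Per kilobase of summed exon length, Rplp1 also had the highest mean level of all members, 18130 normalized counts per kilobase. Rplp2 had 2934 ± 720 normalized counts in WT and 4475 ± 894 in MøFoxO1-KO mice, and its log2 fold change was 0.61 ± 0.21 (SE, adjusted P = 0.213). Rplp0, often used as a reference gene, had a log2 fold change of 0.53 ± 0.31 (SE, adjusted P = 0.424), and its counts are treated below with those of its pseudogenes.

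Among the other members of the large subunit, Rpl29 (ENSMUSG00000048758, chr9:106429454-106431568), a small basic protein on the surface of the subunit, had the highest log2 fold change. Normalized counts of Rpl29 were 690, 1555, 2082 and 2240 in WT replicates 22 to 25 and 3999, 4787, 2333 and 4767 in MøFoxO1-KO replicates 26 to 29. WT replicate 22 was the lowest and the groups did not overlap, although MøFoxO1-KO replicate 28 lay just above the highest WT mouse. As a log2 fold change this is 1.27 ± 0.35 (SE, adjusted P = 0.141). Rpl29 was also the member that departed most from the shared profile, with a residual SD of 0.77 on the log2 scale, beside a median of 0.10 over all members. Some of its near-identical pseudogene copies, treated below, had an opposite profile in MøFoxO1-KO mice. Gm13841 held 52 counts for replicate 28, at most 1 for each other MøFoxO1-KO mouse and 6 to 19 per WT mouse. Gm8210 held 17, at most 1 and 11 to 16, whereas Gm5561 went the other way, with 2, 9 to 20 and 0 to 10. All copies came to 1.42% of the counts of Rpl29, and with them its log2 fold change was 1.25 ± 0.34 (SE). The cause was not tested. Rpl3, which lies near the peptidyl transferase center, had 3158 ± 267 normalized counts in WT and 4428 ± 703 in MøFoxO1-KO mice, without overlap, and a log2 fold change of 0.49 ± 0.14 (SE, adjusted P = 0.150). Rpl10a, part of the L1 stalk, had 3525, 2579, 2888 and 2793 normalized counts in WT replicates 22 to 25 and 3516, 5011, 3860 and 5543 in MøFoxO1-KO replicates 26 to 29. Its groups overlapped by the small distance between WT replicate 22 and MøFoxO1-KO replicate 26. The log2 fold change of Rpl10a was 0.61 ± 0.17 (SE, adjusted P = 0.148).

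Rpl13a, known also for a role outside the ribosome in silencing inflammatory transcripts, had the second highest log2 fold change of the large subunit, 0.73 ± 0.28 (SE, adjusted P = 0.243). Its normalized counts were 7380, 3617, 7956 and 7456 in WT replicates 22 to 25 and 7715, 12870, 8407 and 14900 in MøFoxO1-KO replicates 26 to 29. Replicates 27 and 29 were far above the rest, and replicate 26 lay within the WT range. Rpl13a shares 37.3% of its exon bases with other annotated genes on the same strand, which include several small nucleolar RNA genes. Rpl5 and Rpl11, which with 5S RNA bind Mdm2 when ribosome assembly is disturbed, had log2 fold changes of 0.42 ± 0.18 and 0.45 ± 0.19 (SE), with adjusted P of 0.271 and 0.270 (edgeR). Rpl22, an RNA-binding protein with roles in lymphocyte development, had a log2 fold change of 0.35 ± 0.18 and did not pass at an unadjusted P under 0.05. Rpl41 encodes the shortest protein of the list, 25 residues, and had a log2 fold change of 0.66 ± 0.24 (SE, adjusted P = 0.219).

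In the small subunit the median log2 fold change was 0.53 over 32 genes, 31 of them positive, and in the large subunit it was 0.49 over 46 genes, all positive. At an unadjusted P under 0.05, 25 small-subunit genes and 31 large-subunit genes were higher, beside 8.65% of all tested genes. Rps9 (ENSMUSG00000006333, chr7:3703993-3706901), which lies near the entry of the mRNA channel, had normalized counts of 6549, 4040, 5925 and 5823 in WT replicates 22 to 25 and 6714, 9728, 8272 and 10500 in MøFoxO1-KO replicates 26 to 29. The groups did not overlap, with MøFoxO1-KO replicate 26 close to the highest WT mouse. Rps9 had a log2 fold change that was 0.66 ± 0.19 (SE, adjusted P = 0.150). Rpsa, the laminin receptor precursor, had 7156 ± 1410 and 10790 ± 1935 normalized counts in WT and MøFoxO1-KO mice, a log2 fold change of 0.59 ± 0.19 (SE, adjusted P = 0.183). Rps19 and Rps27, of which Rps19 is the gene most often mutated in Diamond-Blackfan anemia, had log2 fold changes of 0.54 ± 0.22 and 0.67 ± 0.25 (SE, adjusted P = 0.269 and 0.225). Rps27l, a paralog of Rps27 that p53 induces, had a log2 fold change of 0.48 ± 0.20 (SE, adjusted P = 0.260). Rps6, the substrate of the S6 kinases, differed less, with 3713 ± 510 and 4472 ± 555 normalized counts and a log2 fold change of 0.27 ± 0.14 (SE, adjusted P = 0.383).

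Rps18, which lies in the head of the small subunit, was the member with the lowest log2 fold change. Its normalized counts were 6297, 2791, 6350 and 6710 in WT replicates 22 to 25 and 3564, 5991, 6473 and 6091 in MøFoxO1-KO replicates 26 to 29. WT replicate 23 and MøFoxO1-KO replicate 26 were the low mice, and the 2 groups covered the same range. Its log2 fold change was 0.00 ± 0.28 (SE, adjusted P = 0.998), and its sign changed with the normalization. Rpl4, a large protein that lines the exit tunnel, had 7997 ± 750 and 8763 ± 471 normalized counts and a log2 fold change of 0.13 ± 0.12 (SE, adjusted P = 0.620). Rpl24 had 9 to 17 counts per mouse, the lowest of all tested members, and a log2 fold change of 0.07 ± 0.37. In the annotation 47.0% of the exon bases of Rpl24 are shared with a second gene on the same strand, Gm28037, and counts on its pseudogene copies came to 253% of its own.

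Rps4l, annotated as a pseudogene, had the highest log2 fold change of the small-subunit names, 0.79 ± 0.37 (SE, adjusted P = 0.323). Its normalized counts were 310, 113, 231 and 224 in WT replicates 22 to 25 and 562, 347, 166 and 447 in MøFoxO1-KO replicates 26 to 29. MøFoxO1-KO replicate 28 lay below 3 of the 4 WT mice, so the groups overlapped. Rps4x, the protein-coding gene of the same family, had a log2 fold change of 0.36 ± 0.13 with groups that did not overlap, and it is named here after its values were seen.

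Most ribosomal protein genes have processed pseudogenes that resemble their mRNA, and the way in which reads matching several places were counted is not given in the sources used here. Copies with at least 95% identity over at least 200 bases were found for 68 of 82 members, 462 pseudogenes in all. For 5 tested members the copies held over 5% as many counts as the member itself, namely Rplp0, Rpl24, Rpl26, Rpl34 and Rps7, of which all but Rplp0 and Rpl24 are named after their values were seen. For Rplp0, counts on the copy Gm8730 were 1927, 1409, 1077 and 885 for WT replicates 22 to 25, compared with 1860, 1223, 2094 and 14 for MøFoxO1-KO replicates 26 to 29. Rplp0 itself had 4106, 2907, 6125 and 5419 counts in these WT mice and 4303, 6284, 4505 and 8731 in these MøFoxO1-KO mice. MøFoxO1-KO replicate 29, with almost no counts on the copy, had the most counts on Rplp0. With the copies added, the log2 fold change of Rplp0 went from 0.53 ± 0.31 to 0.42 ± 0.19 (SE, unadjusted P = 0.0492, edgeR adjusted P = 0.297).

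For Rpl26, the copy Gm15772 had 5 to 17 counts in the 4 WT mice but 1105, 14, 20 and 1623 for MøFoxO1-KO replicates 26 to 29. Rpl26 had 2163, 5316, 5265 and 3007 counts in the same MøFoxO1-KO mice, so that the 2 mice with many counts on the copy had the fewest on the gene. Adding the copies moved the log2 fold change of Rpl26 from 0.20 to 0.43 ± 0.24 (SE, adjusted P = 0.401). For Rpl34, the copy Rpl34-ps1 held 730, 197, 2 and 283 counts for WT replicates 22 to 25, compared with 301, 422, 391 and 949 for MøFoxO1-KO replicates 26 to 29. Here too the mouse with 2 counts on the copy, WT replicate 24, had the most counts on the gene, 2851, beside 942 to 2536 in the other mice. The log2 fold change of Rpl34 was 0.38 without and 0.48 ± 0.23 (SE, adjusted P = 0.338) with the copies. Over all members, adding the copies left a median log2 fold change of 0.50 and 58 members higher at an unadjusted P under 0.05, beside 8.66% of all genes.

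**Figure D4:**
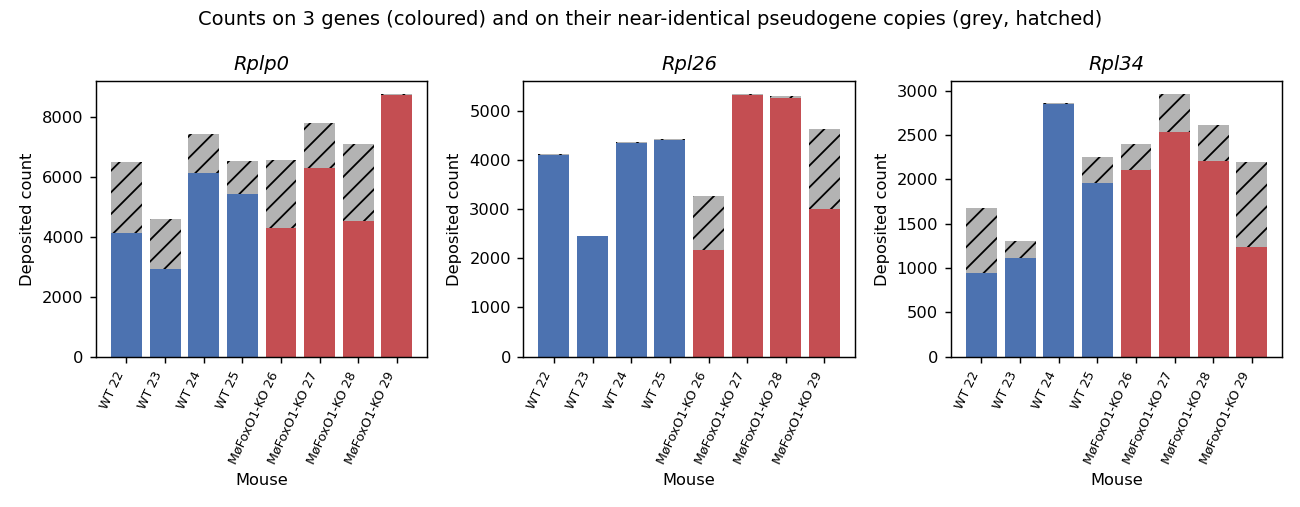
Deposited counts of Rplp0, Rpl26 and Rpl34 (colored bars, blue for WT and red for MøFoxO1-KO) and, stacked above them, of their near-identical pseudogene copies (grey, hatched) in each of the 8 mice. The copies of Rplp0 have 18 counts in MøFoxO1-KO replicate 29 and at least 1091 in the other mice, and those of Rpl26 have over 1000 counts only in MøFoxO1-KO replicates 26 and 29.

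The relation of the change to gene length was examined, since ribosomal protein genes are short. Length was the summed exon length of all transcripts of the gene in the count table, with a median of 1560 bases (404 to 6262) over the tested members and of 3786 bases over the other tested genes. Rpl36, Rps12 and Rps26 were the shortest members, with log2 fold changes of 0.73 ± 0.26, 0.64 ± 0.23 and 0.50 ± 0.17 (SE). Rps15a, Rps19 and Rps3 were the longest, with log2 fold changes of 0.51 ± 0.18, 0.54 ± 0.22 and 0.43 ± 0.17. Summed exon length is not mRNA length, as Rps15a has 6262 bases of exon in total and a coding length of 390 bases. Across the 78 members the Spearman correlation of the log2 fold change with length was -0.25, and across the 13200 other genes it was -0.28. With coding length in its place, chosen after the data were seen, it was -0.31 across 77 members and -0.27 across 12198 other genes. Genes are not independent replicates, and these correlations are descriptions.

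Members were higher than other genes of similar length in each range of length. From 500 to 1000 bases the median log2 fold change was 0.54 over 21 members and 0.33 over 533 other genes. At an unadjusted P under 0.05, 71.4% of these members and 28.3% of these other genes were higher. From 1000 to 2000 bases the median was 0.49 over 27 members and 0.16 over 1905 other genes, and the shares higher were 63.0% and 19.1%. From 2000 to 4000 bases the median was 0.45 over 21 members and -0.01 over 4362 other genes, and the shares higher were 71.4% and 7.7%. The ranges under 500 bases and over 4000 bases held only 4 and 5 members, with medians of 0.67 and 0.51 beside 0.35 and -0.09 for other genes. All of these members were higher at an unadjusted P under 0.05, beside 19.8% and 3.33% of the other genes. The slope of the log2 fold change per doubling of length was -0.04 across members and -0.10 across other genes. When the members were split at the middle by length, the median was 0.54 in the shorter 39 and 0.48 in the longer 39. In each part 28 members were higher at an unadjusted P under 0.05, beside 8.65% of all tested genes. The share of other genes differed between the ranges of length, as given above, so these equal counts do not stand beside equal shares.

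**Figure D5:**
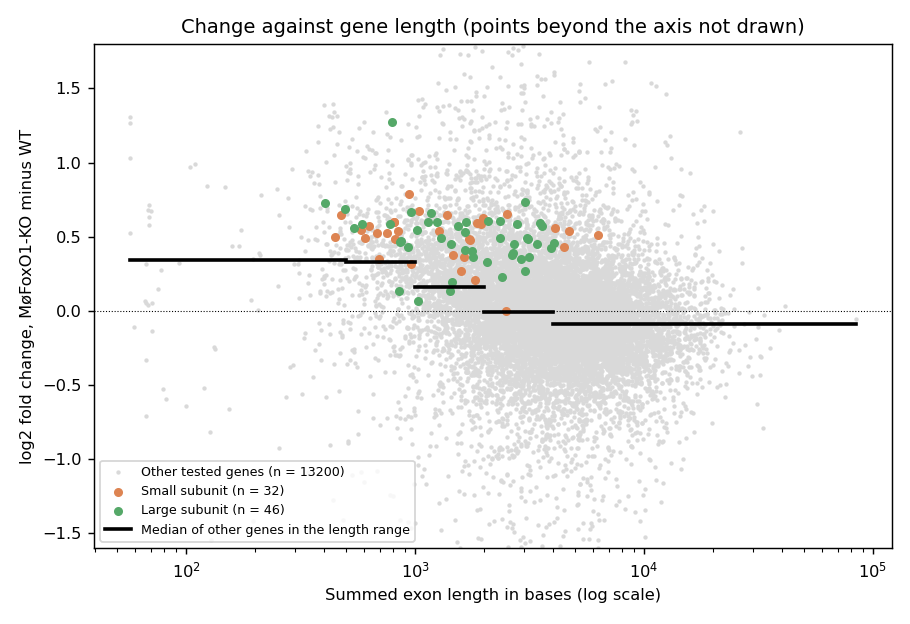
Log2 fold change (MøFoxO1-KO minus WT, y axis) against summed exon length in bases (x axis, log scale) for 32 small-subunit genes (orange), 46 large-subunit genes (green) and 13200 other tested genes (grey). Black lines are the medians of the other genes in 5 ranges of length, and 177 other genes beyond the y axis are not drawn. The members lie mostly above the black lines in each range.

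With an offset that removed the dependence on length in each mouse, the median log2 fold change of the members was 0.35, 74 of 78 were positive and 33 were higher at an unadjusted P under 0.05, beside 7.16% of all genes. With an offset for length and GC content the values were 0.35, 74 and 35, beside 7.28%. Single mice also set the number of members past an unadjusted P under 0.05. Without MøFoxO1-KO replicate 27 it was 16, beside 5.67% of all genes, without MøFoxO1-KO replicate 29 it was 17, beside 5.89%, and without WT replicate 23 it was 38, beside 7.15%. Without both WT replicate 23 and MøFoxO1-KO replicate 29, which had the highest and the lowest slope on gene length, 9 members were higher, beside 5.41%, the median was 0.28 and 77 of 79 tested members were positive. Without MøFoxO1-KO replicate 26, in 66 of 78 members every remaining MøFoxO1-KO mouse was above every WT mouse, beside 8.49% of all genes, and without WT replicate 24 this held for 25, beside 7.16%. In each of these fits 0 members were lower at an unadjusted P under 0.05.

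Genes related to ribosomal proteins but outside the naming rule varied. Of 9 such genes, which include the pseudogene Rps6-ps4 (0.30 ± 0.31), also counted among the pseudogenes, and Rpl7l1 (0.18 ± 0.10), a paralog of Rpl7, 7 had a positive log2 fold change, with a median of 0.44, and 4 were higher at an unadjusted P under 0.05 (8.65% of all genes). These were Rpl22l1, the paralog of Rpl22, at 0.71 ± 0.13 (SE, edgeR adjusted P = 0.0682), Rpl36al at 0.60 ± 0.18, Fau, which encodes Rps30 fused to a ubiquitin-like protein, at 0.58 ± 0.21, and Rack1, the scaffold on the head of the small subunit, at 0.44 ± 0.17. Rps3a1, a component of the small subunit, was at -0.12 ± 0.60. Normalized counts of Rps3a1 were 1292, 994, 3844 and 5802 in WT replicates 22 to 25 and 3676, 4708, 1209 and 1400 in MøFoxO1-KO replicates 26 to 29. They fell into a low and a high level of 4 mice each, with 2 mice of either genotype in both, and did not follow the profile that the members shared.

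Other parts of the translation machinery were compared by counts and medians, beside the 8.65% of all tested genes that were higher and the 8.06% that were lower at an unadjusted P under 0.05. Of 9 genes listed as elongation factors and relatives, 8 had a positive log2 fold change, with a median of 0.37. At an unadjusted P under 0.05, 4 were higher, namely Eef1b2, Btf3, Eef1d and Tpt1 (0.43, 0.38, 0.39 and 0.45). Btf3, Tpt1, Naca (0.37) and Eef2k (-0.03) are in this list but are not elongation factors. Eef1a1 and Eef2, named like Naca and Eef2k after their values were seen, were at 0.06 ± 0.13 and 0.003 ± 0.12 (SE). Of 37 initiation factors 23 were positive, with a median of 0.06, and 5 (13.5%) were higher and 1 was lower at an unadjusted P under 0.05, shares near those of all genes. Eif1, which sets the accuracy of start codon choice, had a log2 fold change of 0.38 ± 0.14, and Eif5b, which joins the subunits, was lower, at -0.63 ± 0.16 (SE, adjusted P = 0.123). The 45 ribosome biogenesis genes had a median of -0.06, with 17 positive, 3 (6.67%) higher and 1 lower, also near the shares of all genes. The higher genes were Nop10, Mrto4 and Fbl (0.39, 0.35 and 0.39), and Nop58 was lower (-0.55). Among 20 regulators of TOP mRNAs and mTORC1 the median was -0.07, with 1 higher and 4 lower. The translation repressor Eif4ebp2 and the transcription factor Myc were lower, at -0.75 ± 0.25 and -0.93 ± 0.37 (SE), as were Larp1 and the mTORC1 inhibitor Tsc2, at -0.33 ± 0.12 and -0.31 ± 0.12. Mycn, a relative of Myc with 7.85 to 41.7 normalized counts per mouse, was higher, at 1.25 ± 0.46. The adjusted P of these 5 genes lay between 0.199 and 0.253 (edgeR). Of 9 tested ribosomal S6 kinases 1 was lower, Rps6ka3, at -0.54 ± 0.17. None of these lists held a gene with an adjusted P under 0.05.

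Mitochondrial ribosomal protein genes, whose products translate the mRNAs of mitochondrial DNA, also had mostly positive log2 fold changes. Of 83 genes 77 were tested, 65 were positive, the median was 0.30 and 38 were higher at an unadjusted P under 0.05 (8.65% of all genes), while 0 were lower (8.06%). Every MøFoxO1-KO mouse was above every WT mouse in 29 of 77, beside 16 of 78 for the cytosolic genes and 5.0% of all tested genes. Their summed normalized counts were 37130 to 45500 in WT and 47650 to 54520 in MøFoxO1-KO mice, without overlap, whereas the sums of the cytosolic genes, 209000 to 324300 and 318400 to 478900, overlapped. Mrps18a, with a log2 fold change of 0.72 ± 0.13, had the smallest adjusted P, 0.057 (edgeR). Of 269 pseudogenes named after cytosolic ribosomal proteins 23 were tested, 20 were positive, the median was 0.43 and 3 of the 23 were higher at an unadjusted P under 0.05, a share near the 8.65% of all genes.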

How the data were processed

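Whole liver RNA of 4 MøFoxO1-KO mice and 4 WT littermates was analyzed. The authors deposited raw read counts per Ensembl gene with gene coordinates and summed exon length. Per the labels the submitters' processing notes name STAR, featureCounts and mm10, and their versions, the handling of strand and that of multi-mapping reads are not given in the sources used here. Total counts of 15253218 to 18025481 per mouse limit the precision of genes with few counts. Symbols came from GENCODE M21 and no column of counts was left out.

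Genes were filtered with filterByExpr (minimum count 10, minimum total 15), normalized by TMM and compared by the quasi-likelihood test of edgeR 4.0.16 in R 4.3.3 over all 13278 genes, with Benjamini-Hochberg adjustment and a threshold of 0.05. The standard error was the absolute log2 fold change divided by the square root of F. Deviations per mouse used log2 of normalized counts with a pseudocount of 0.5. Exact permutation tests were made with scipy 1.17.1. Pseudogene copies were searched with blastn in GENCODE M21 transcripts. Members and lists were chosen with earlier results of these data known, so counts and medians over lists are descriptions beside those of all genes, and no test was made over a list.

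Named genes were the stalk genes, Rpsa, Rpl5, Rpl11, Rps6, Rps19, Rps27, Rps27l, Rpl22, Rpl3, Rpl3l, Rpl41, the 5 with the smallest P, the 3 highest and 3 lowest log2 fold changes, the 3 shortest and 3 longest genes, each member not tested, Rps3a1, Fau, Rack1 and up to 6 genes per other list with an unadjusted P under 0.05. Another gene of this rule is not reported here. Marker lists of stellate, endothelial, biliary, lymphoid and neutrophil cells were counted too. Their median log2 fold changes were -0.06, 0.23, -0.23, 0.52 and -0.05. The alternatives were DESeq2 1.42.0, its size factors, upper-quartile normalization, TMM without the members, no filter, 10 counts in every mouse, limma-voom (limma 3.58.1), robust edgeR, offsets for length and GC content and leaving out each mouse. Adding pseudogene copies, leaving out 2 mice and coding length were chosen after seeing the data. The tests and the offset were checked on simulated data.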

Additional observations from a re-analysis of the deposited data

Results flagged for a closer look

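Of 60 groups of 4 mice that were examined, 9 held an outlying mouse by Dixon's test. The distance of that mouse to its nearest neighbor took a larger share of the range of the group than the test allows. Chance gives about 1 in 20 for independent groups. These groups share the same mice and the members moved together, so 9 of 60 cannot be held against that rate. WT replicate 23 set 7 of the 9. Its median log2 deviation of the ribosomal protein genes was -0.75, and its normalized counts were 3617 for Rpl13a, 1866 for Rplp2, 2548 for Rps12, 2791 for Rps18, 2179 for Rps19 and 3455 for Rps3, each the lowest of the 4 WT mice. In MøFoxO1-KO mice the outlying value was 3564 normalized counts of Rps18 in replicate 26. Rpl3l had 9.21 normalized counts in WT replicate 24, from 10 counts, and at most 1 count in the other WT mice.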

How the results depend on the processing

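The median log2 fold change of the ribosomal protein genes was positive under all alternatives, from 0.28 without the 2 mice with the outermost slopes on gene length to 0.62 without MøFoxO1-KO replicate 26. With the offsets for gene length and for length and GC content, 33 and 35 members were higher at an unadjusted P under 0.05. Beside them, 7.16% and 7.28% of all genes were higher. Without the 2 mice 9 members were higher, beside 5.41% of all genes. When each mouse was left out in turn the number was 16 to 65, beside 5.67% to 9.35% of all genes. The number called at an adjusted P under 0.05 was 8 with DESeq2, beside 2.58% of all genes called higher, and 0 under the other alternatives. The number with every MøFoxO1-KO mouse above every WT mouse was 16 to 66 when each mouse was left out, beside 5.86% to 8.49% of all genes. It was 25 when WT replicate 24 was absent and 66 when MøFoxO1-KO replicate 26 was absent, and fewer mice make such a separation easier by construction. The Spearman correlation with length turned from -0.25 to 0.57 and 0.53 with the offsets, which remove the slope of all genes by construction. Among 26 named genes and 20 alternatives, 17 of 519 values changed sign and 6 passed at an adjusted P under 0.05, all with DESeq2. Rps18 went from 0.00 to 0.0094 with DESeq2, 0.0093 with its size factors, 0.012 with upper-quartile normalization, 0.0016 with TMM without the members, 0.045 with limma-voom and 0.00013 with the copies added, and was -0.22 to 0.16 when each mouse was left out. Rpl24 was -0.17 and -0.14 with the offsets and -0.065 to 0.30 when each mouse was left out, and Rpl4 was -0.040 and -0.015 with the offsets. The cause was not tested. No paired analysis was possible because the labels give neither the litter of each mouse nor another pairing of the 2 genotypes. For genes with few counts, such as the 4 members not tested, depth limits what can be seen. Rpl24 also had few counts, but it shares exon bases with Gm28037 and has pseudogene copies with more counts than its own. Its low count therefore cannot be read as a matter of depth alone, and the part of read assignment was not tested.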
